A study of Mus musculus with 2 samples.

Results

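Slc17a6, Slc17a7 and Slc17a8 encode the vesicular glutamate transporters VGLUT2, VGLUT1 and VGLUT3, and are described here as 3 of the 55450 genes in nuclei of the ventrolateral periaqueductal gray (vlPAG), together with 4 partner genes. The genes were chosen by name as a family, not by their values, and the questions were which cell groups hold which transporter, whether a transporter RNA shares a nucleus with RNA for GABA or serotonin, and whether the levels differ between diets. The HFD library was made from the pooled vlPAG of 18 C57/BL6J mice of wild-type genotype (WT) on a high-fat diet for 7 weeks, and the NFD library from 18 such mice on normal food over the same time, all 8 weeks old when the diets began. There is 1 library per diet, so differences between mice cannot be seen, and every interval below is a 95% counting interval that covers the sampling of molecules or nuclei only.

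A glutamatergic neuron is defined by a vesicular glutamate transporter, which loads glutamate into synaptic vesicles using the proton gradient made by the vesicular ATPase. VGLUT2 is the main form of brainstem and midbrain neurons, VGLUT1 that of cortical neurons and cerebellar granule neurons, and VGLUT3 is found mostly in neurons that also release another transmitter, such as serotonin, acetylcholine or GABA. The partner genes stand for those transmitters: Gad1 and Gad2 encode the enzymes that make GABA, Slc32a1 encodes VGAT, which loads GABA and glycine into vesicles, and Tph2 encodes the enzyme that commits tryptophan to serotonin in neurons.

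On GRCm38, Slc17a6 lies at chr7:51622006-51671119 on the plus strand, Slc17a7 at chr7:45163949-45176142 on the plus strand and Slc17a8 at chr10:89574020-89621253 on the minus strand. The predicted gene Gm45072 overlaps Slc17a6 and the microRNA gene Mir7055 overlaps Slc17a7, both on the same strand, and no annotated gene overlaps Slc17a8. RNA was counted near its 3′ end as unique molecular identifiers (UMIs), so each gene is compared with itself between groups, and levels of different genes are not ranked against each other.

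After nuclei with 500 UMIs or fewer or with 20% or more mitochondrial UMIs were left out, the HFD library held 6322 of 6813 barcodes with a median of 7347.5 UMIs, and the NFD library 7500 of 7625 barcodes with a median of 4504.5 UMIs. The libraries shared 13 barcode sequences. Clustering, done without the transmitter genes, gave 41 cell groups. Of these, 30 came from a second clustering of the neuronal clusters and are called the neuronal groups (N0 to N29, with 4450 HFD and 6189 NFD nuclei), although N27, with 79 HFD and 61 NFD nuclei, did not itself pass the neuron marker score. A group of granule neuron-like nuclei, led by Gabra6 and Etv1, held 814 HFD and 9 NFD nuclei, so no level of it can be set between the diets. It passed the neuron marker score but is not counted among the neuronal groups. Group N0 held 45 HFD and 910 NFD nuclei, and group N15, led by Actb and mt-Nd1, held 12 and 262. Cluster 16 had a median of 849.5 UMIs in HFD and 824 in NFD. These groups stood apart by their share of each library or their depth. Ratios of the members over all nuclei and the overlap shares over all nuclei were also computed without them and are given where these changed.

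Slc17a6 was the transporter of most vlPAG neurons that held any. It had 4291 UMIs in the HFD library, or 78.6 per 1000000 UMIs of the library (CPM), against 3378 UMIs and 82.3 CPM in the NFD library. At least 1 UMI was found in 1888 HFD nuclei (29.9%) and in 1987 NFD nuclei (26.5%). After each nucleus was thinned to 2000 UMIs, which left out shallower nuclei and kept 5314 in HFD and 6359 in NFD, the shares were 13.3% and 14.9%. The full-depth shares thus stand in the opposite order to the thinned ones and to the CPM. Most of these RNAs were in neuronal groups, which held 97.6% of the Slc17a6 UMIs in HFD and 97.2% in NFD.

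Slc17a8 was rarer and was held by few nuclei. It had 420 UMIs in HFD (7.69 CPM, 103 nuclei), against 447 UMIs in NFD (10.9 CPM, 165 nuclei). The 10 nuclei richest in Slc17a8 held 30.5% of its UMIs in HFD and 19% in NFD, against 2.66% and 2.28% for Slc17a6. These shares also follow the number of nuclei with a UMI, which was 1888 in HFD and 1987 in NFD for Slc17a6. Slc17a7 had 240 UMIs in HFD (4.40 CPM, 200 nuclei), of which 171 nuclei held a single UMI, against 8 UMIs in 8 nuclei in NFD (0.19 CPM). Neuronal groups held 96.9% of the Slc17a8 UMIs in HFD and 99.8% in NFD, but 16.7% of the Slc17a7 UMIs in HFD, where the granule neuron-like nuclei, counted apart, held 62.9%.

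**Figure D1:**
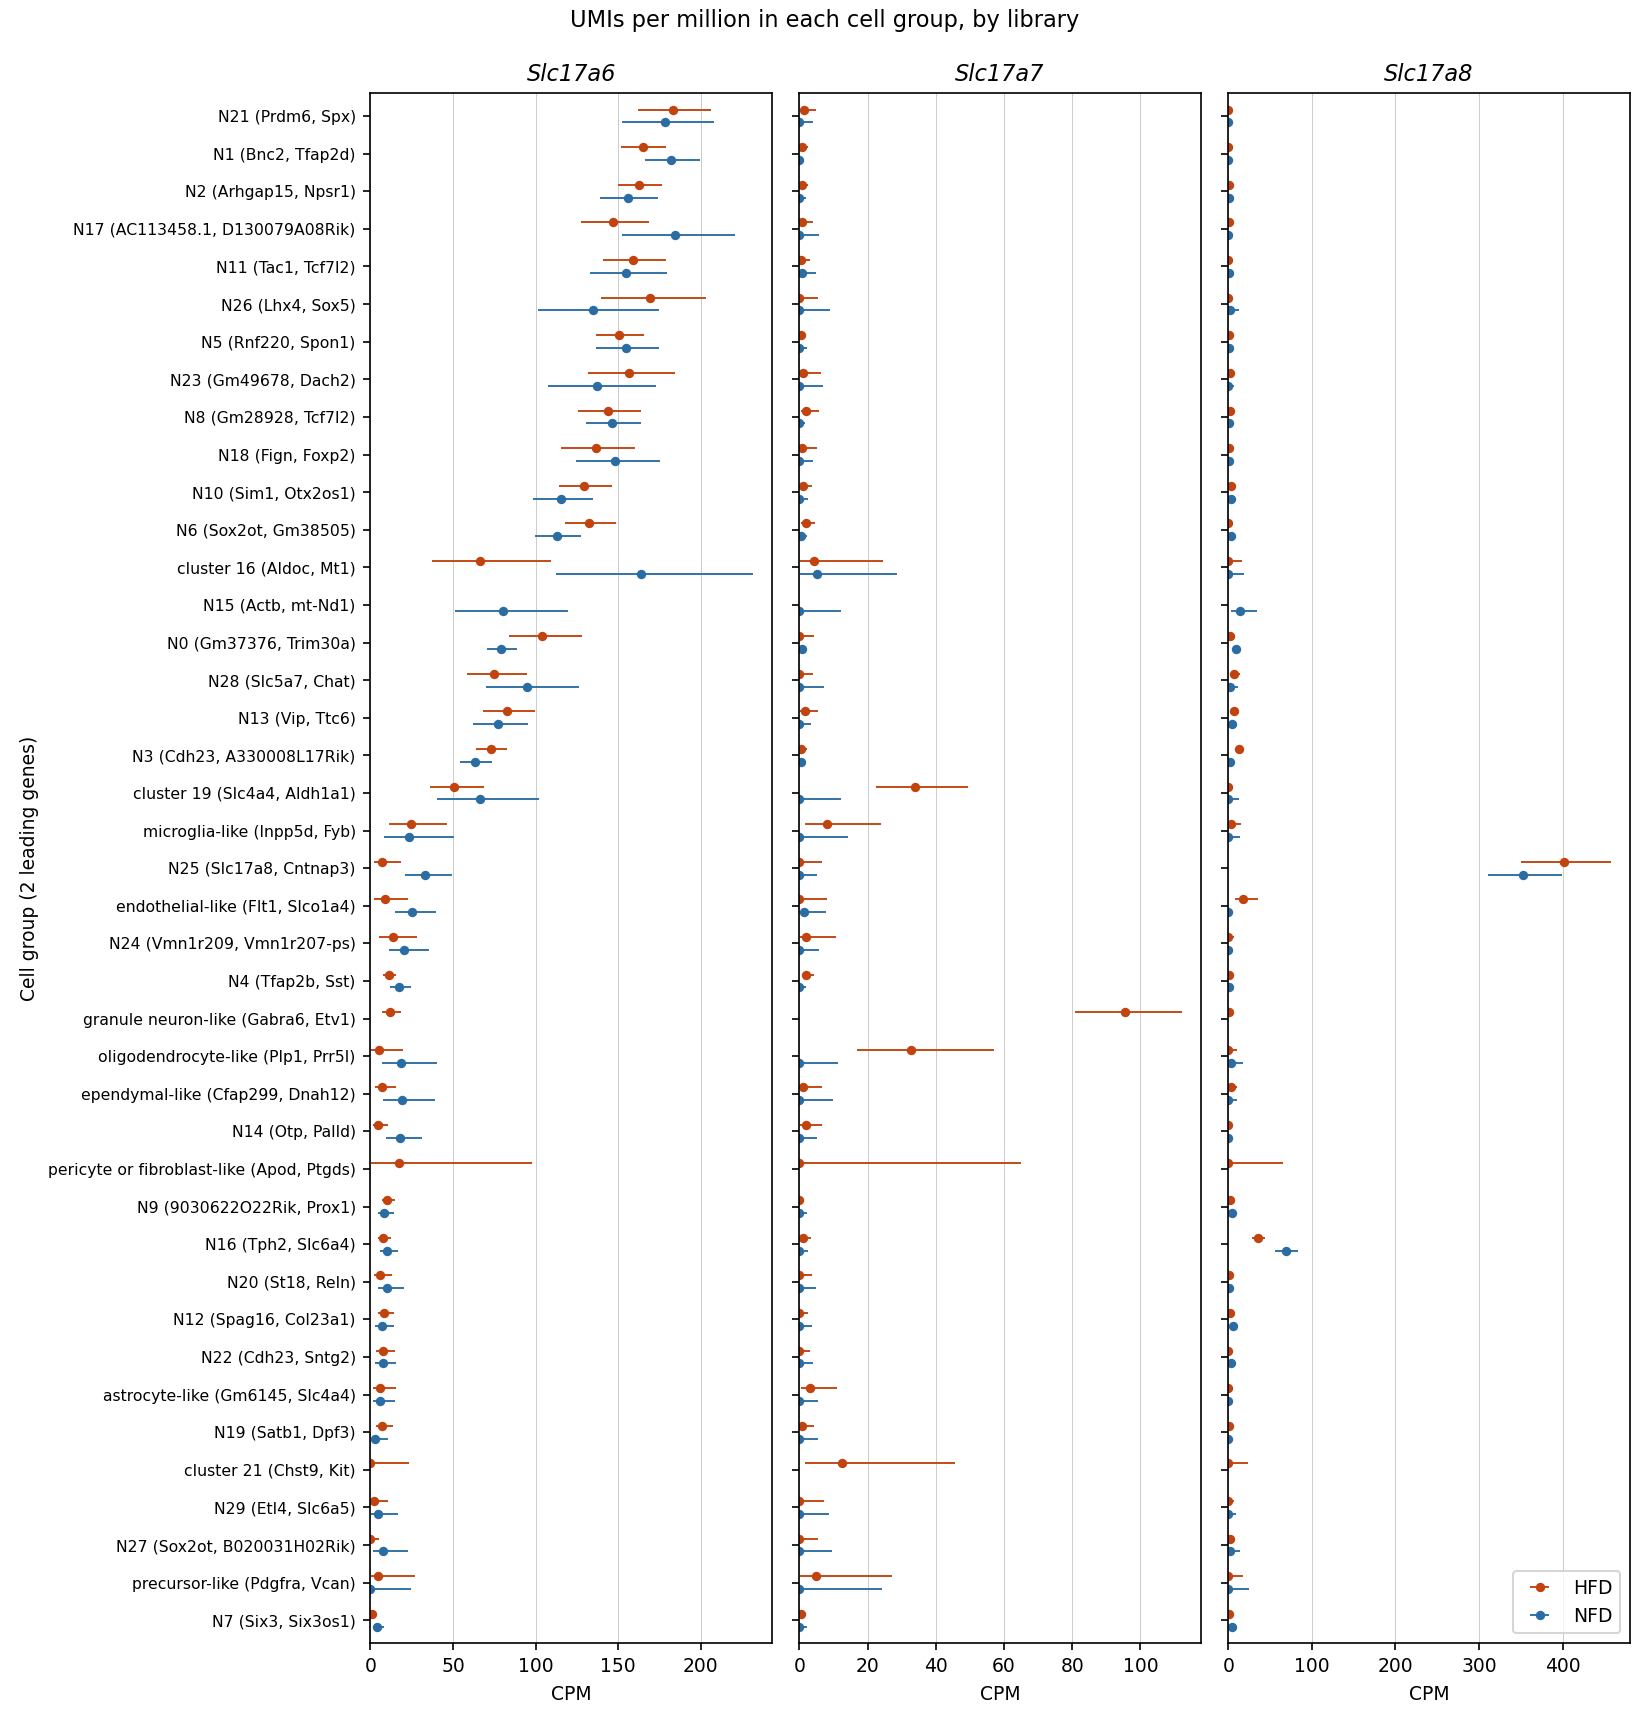
Level of the 3 transporters (CPM, horizontal axes) in the 41 cell groups, ordered by Slc17a6, with HFD above NFD in each group, points for summed UMIs and bars for 95% Poisson intervals; a library is drawn for a group only where it holds at least 50000 UMIs. Slc17a6 is spread over many neuronal groups, Slc17a7 peaks in granule neuron-like nuclei and Slc17a8 in N25.

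Over both libraries, 13 of the 41 groups had Slc17a6 at 100 CPM or more, 6 had 25 to 100 CPM and 22 had less than 25 CPM, as the plot of levels by cell group shows. The highest were N21 (led by Prdm6 and Spx), with 183 CPM in HFD and 178 CPM in NFD, and N1 (led by Bnc2 and Tfap2d), with 165 CPM in HFD and 182 CPM in NFD. Group N2, led by Arhgap15 and the neuropeptide S receptor gene Npsr1, had 163 CPM in HFD and 156 CPM in NFD. In 12 of the 13 groups both libraries were above 100 CPM, the exception being cluster 16 with 66.2 CPM in HFD and 164 CPM in NFD.

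The order of the groups was a gradual one down to a single step. Of the 40 pairs of neighbours in the order of Slc17a6, only cluster 19 (54.8 CPM) and microglia-like nuclei (23.9 CPM) had intervals that did not overlap. The level in astrocyte-like, microglia-like, endothelial-like and oligodendrocyte-like nuclei, which should lack the gene, gives a background level, whose source was not tested. It was 10.3 CPM in HFD and 17.1 CPM in NFD, with an Slc17a6 UMI in 2.64% of 568 HFD nuclei and 3.18% of 943 NFD nuclei. The medians of these 4 groups lay between 1402 and 2717 UMIs in HFD and between 929 and 1779 UMIs in NFD. After thinning to 2000 UMIs, 2 of 295 HFD nuclei (0.68%) and 8 of 310 NFD nuclei (2.58%) of these groups held Slc17a6. The neuronal groups with less than 25 CPM lay on both sides of this background, from 2.10 CPM in N7 and 2.81 CPM in N27 to 21.5 CPM in N25, where 6.98% of thinned nuclei held the gene.

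Groups rich in Slc17a6 were mostly poor in the vesicular GABA transporter. Of the 13 groups at 100 CPM or more of Slc17a6, Slc32a1 reached 25 CPM in 1 (cluster 16, 45.1 CPM), and its median over the 13 was 3.46 CPM. In the other direction, 14 groups had Slc32a1 at 25 CPM or more, and 3 of these had Slc17a6 at 25 CPM or more. Those 3 were N15, cluster 16 and N3, led by Cdh23, with 72.8 CPM of Slc17a6 in HFD and 63.2 CPM in NFD. Gad2 was at 25 CPM or more in 7 of the 13 groups, at 50 CPM or more in 5 and at 100 CPM or more in 3 (N5, N10 and cluster 16). The cut of 25 CPM is under the Gad2 level of the glial and vascular groups, given further on. Gad2 also reached higher levels, up to 464 CPM (N29), against 73.7 CPM for Slc32a1 (N15). The same cut therefore does not rank these genes by how far they exclude Slc17a6. Across the 41 groups the Pearson correlation with Slc17a6 was -0.62 for Gad1, -0.44 for Slc32a1 and -0.38 for Gad2, given as a description since the groups share libraries.

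In N5 and N10, Slc17a6 came together with Gad2, and in N5 with little RNA of the other GABA genes. Group N5, led by Rnf220, Spon1 and the enkephalin gene Penk, had 150 CPM of Slc17a6 in HFD and 155 CPM in NFD. Its Gad2 level was 140 CPM in HFD and 113 CPM in NFD, while Gad1 was at 3.94 and 5.25 CPM and Slc32a1 at 3.22 and 1.75 CPM. Group N10, led by Sim1, a transcription factor gene, and Otx2os1, had 129 CPM of Slc17a6 in HFD and 116 CPM in NFD. Over both libraries N10 had 136 CPM of Gad2, 20.7 CPM of Gad1 and 8.27 CPM of Slc32a1. N5 had 4.44 CPM of Gad1 and 2.66 CPM of Slc32a1 by the same measure.

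Slc17a6 and Gad2 were also found in the same nuclei of N5 and N10. The Gad2 level of the 4 glial and vascular groups was 27.1 CPM in HFD and 38.7 CPM in NFD, and 3.39% of their HFD and 8.39% of their NFD nuclei held a Gad2 UMI after thinning to 2000 UMIs, against 20.9% and 19.9% in N5 and 21.1% and 25.0% in N10. How many of the nuclei with a Gad2 UMI carry it as background was not tested. After thinning to 4000 UMIs, 486 of the 581 nuclei of N5 remained, and Slc17a6 was found in 57 of 153 nuclei with Gad2 (37.3%, 29.6 to 45.4) and in 44.1% (38.7 to 49.7) of those without. In N10, 41 of 120 nuclei with Gad2 had Slc17a6 (34.2%, 25.8 to 43.4), against 35.3% (29.0 to 42.1) of the others. In neither group did the shares with and without Gad2 differ beyond their intervals. By library, the share in Gad2 nuclei of N5 was 33.7% in HFD and 42.2% in NFD, and in N10 it was 35.9% in HFD and 32.1% in NFD, with overlapping intervals in both groups. In N0, whose nuclei are nearly all from NFD, the shares were 28.1% with Gad2 and 27.8% without.

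In N6 and N3, Slc17a6 and the pair Gad1 and Slc32a1 lay mostly in different nuclei. Group N6, led by Sox2ot, Gm38505 and Ebf3, had 133 CPM of Slc17a6 in HFD and 113 CPM in NFD. Of its nuclei thinned to 4000 UMIs, Slc17a6 was in 15.2% (8.74 to 23.8) of those with Gad2 and in 40.6% (35.6 to 45.8) of those without. With Gad1 or Slc32a1 the share was 1 of 65 (1.54%, 0.0389 to 8.28), against 40.7% (35.9 to 45.6) without either. None of 19 HFD nuclei and 1 of 46 NFD nuclei of N6 with Gad1 or Slc32a1 held Slc17a6.

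The same held in N3, where 5 of 152 nuclei with Gad1 or Slc32a1 had Slc17a6 (3.29%, 1.08 to 7.51), against 25.2% (20.4 to 30.5) of the rest. By library these shares were 3.70% against 27.5% in HFD, and 3.06% against 23.2% in NFD. With Gad2 as the partner the contrast was smaller, at 12.3% against 23.9% over both libraries. In N3 and N6 the intervals for nuclei with and without Gad1 or Slc32a1 did not overlap. In N5 few nuclei had either gene (16, of which 8 had Slc17a6), so the comparison could not be resolved there. Reads of Slc32a1 and of its antisense neighbour Gm14205, and of Gad1 and Gad1os, come from overlapping gene models.

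**Figure D2:**
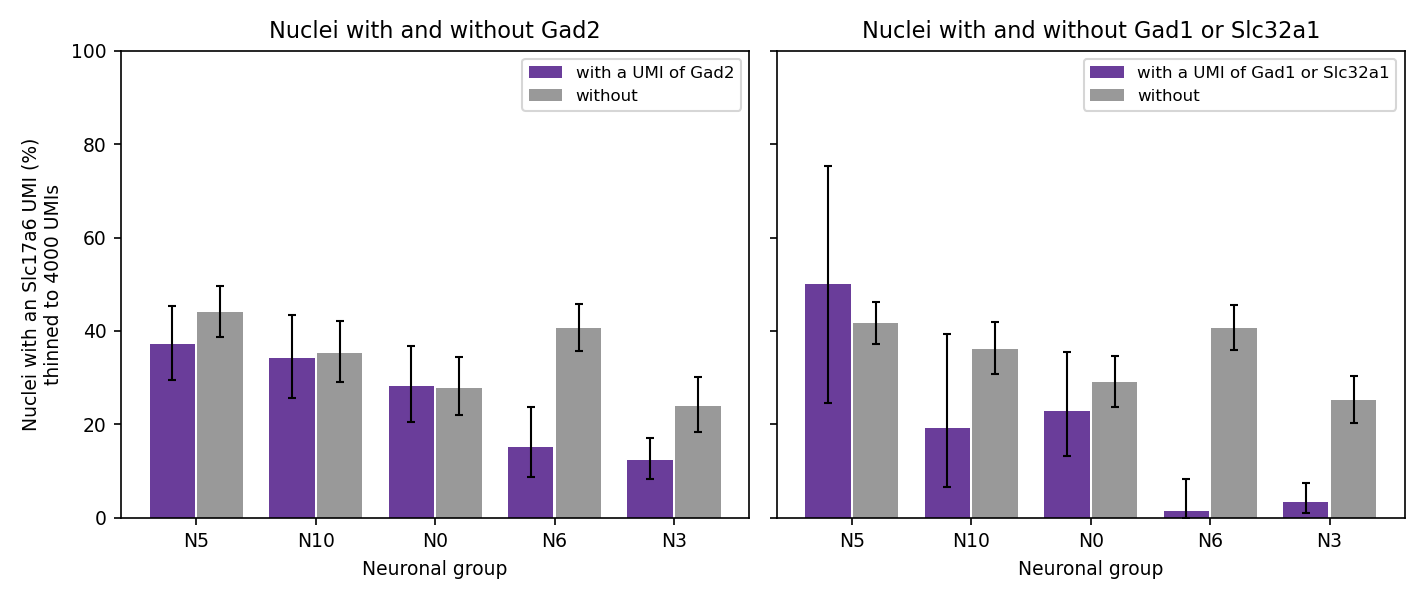
Share of nuclei with an Slc17a6 UMI (%, both libraries, each nucleus thinned to 4000 UMIs) in 5 neuronal groups, for nuclei with (purple) and without (grey) a UMI of Gad2 (left) or of Gad1 or Slc32a1 (right), with 95% Clopper-Pearson intervals. In N5, N10 and N0 the intervals of the 2 bars overlap for Gad2, while in N6 and N3 the purple bars are lower, at 1.54% and 3.29% in the right panel. The right-panel bars of N10 and N0 are drawn but not described in the text.

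In the neuronal groups, nuclei with both a glutamate and a GABA gene at full depth were deeper than those with a transporter gene alone. Among these nuclei at full depth, 30.6% of the HFD and 24.0% of the NFD nuclei had a UMI of a vesicular glutamate transporter with none of Gad1, Gad2, Slc32a1 and Tph2. GABA genes alone were found in 39.4% of HFD and 36.2% of NFD neuronal nuclei, and both kinds in 11.1% and 7.89%. Nuclei with both had a median of 12222 UMIs in HFD and 6668 UMIs in NFD, above the medians of 9814 and 6206 UMIs for transporter-only nuclei. With genes detected after thinning to 2000 UMIs, the order was the other way round. The medians before thinning were then 9095 UMIs in HFD and 4189 in NFD with both, against 9405 and 5493 for transporter-only nuclei.

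The order of the diets in this overlap depended on how depth was handled. Of HFD nuclei with a GABA gene, 71 of 1473 had a vesicular glutamate transporter UMI after thinning to 2000 UMIs (4.82%, 3.78 to 6.04), against 151 of 1844 NFD nuclei (8.19%, 6.98 to 9.53). At full depth the shares were 21.5% in HFD and 18.0% in NFD, the other way round. Without N0, N15 and cluster 16 the thinned shares were 4.75% in HFD and 6.26% in NFD, with overlapping intervals. No difference between the diets can be read from these shares.

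For the pair of vesicular transporters, Slc17a6 was in 10 of 190 HFD nuclei with Slc32a1 (5.26%, 2.55 to 9.47) and in 7 of 293 such NFD nuclei (2.39%, 0.966 to 4.86), thinned to 2000 UMIs. The full-depth shares were 13% in HFD and 8.47% in NFD. With another seed of the thinning the order turned round, at 2.06% in HFD and 3.64% in NFD, as it did at 4000 UMIs (5.05% and 5.40%), so no order of the diets can be read here either. In both libraries these were below the shares with Slc17a6 among nuclei without Slc32a1, which were 13.6% in HFD and 15.5% in NFD after thinning. Glial and vascular nuclei of the 4 groups with a UMI of a GABA gene held Slc17a6 in 0 of 16 HFD cases and 2 of 37 NFD cases at the same depth, numbers too small to set a floor tighter than these shares.

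Slc17a8 was concentrated in a small part of the neurons. When the neurons were clustered at a resolution of 0.5, a mixed cluster of 1324 nuclei held 62.5% of all Slc17a8 UMIs, at 72.3 CPM in HFD (63.8 to 81.7) and 52.2 CPM in NFD (46.3 to 58.7). The resolution of 1.0 was chosen after this was seen, in order to divide that cluster, so the high Slc17a8 level of N25, which came out of it, is a description that the choice of resolution helped to fix. Over both libraries N25 had 374 CPM, N16 had 47.9 CPM and every other group under 13 CPM, and the intervals of N25 and N16 stood apart from each other and from the next group. N25 and N16 held 54.2% and 22.0% of all Slc17a8 UMIs. In 11 groups no Slc17a8 UMI was found. The 4 glial and vascular groups were at 4.87 CPM in HFD and 0.50 CPM in NFD, and 8 of the 9 UMIs behind the HFD value were in 2 endothelial-like nuclei.

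Group N25 was led by Slc17a8, which was not among the clustering genes but bore on the resolution as said, by Cntnap3 and by Lmx1b, a transcription factor gene needed by developing serotonergic neurons. It held 40 HFD nuclei with a median of 11599 UMIs and 133 NFD nuclei with a median of 4514 UMIs. Slc17a8 was at 401 CPM in HFD (38 of 40 nuclei, 95%), against 353 CPM in NFD (74 of 133 nuclei, 55.6%). The log2 ratio of HFD to NFD was 0.19 (-0.08 to 0.45), an interval that spans 0. All 173 nuclei of N25 lay in the mixed cluster at 0.5, and no cluster at 0.5 or 0.3 matched N25.

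Group N16 was serotonergic-like, led by Tph2, the serotonin transporter gene Slc6a4 and the vesicular monoamine transporter gene Slc18a2. Tph2 was at 2193 CPM in its 131 HFD nuclei and at 2123 CPM in its 116 NFD nuclei. Slc17a8 had 90 UMIs (35.7 CPM) in 22 HFD nuclei, against 101 UMIs (68.9 CPM) in 21 NFD nuclei, a log2 ratio of -0.95 (-1.37 to -0.52). The share of nuclei with a UMI was 16.8% in HFD and 18.1% in NFD, at median depths of 17375 and 11783 UMIs, so these shares are not at equal depth. In N16 nuclei with both Slc17a8 and Tph2, Slc17a8 was at 202 CPM over 21 HFD nuclei and at 290 CPM in 21 NFD nuclei. By the bound used throughout, an interval that lies wholly more than 0.32 from 0 on the log2 scale, Slc17a8 was called lower in HFD in N16, as were 1.32% of the 5543 genes with at least 100 UMIs there, and 1.14% were called higher. Like every ratio interval here, this one takes UMIs as independent and does not cover their spread over nuclei. The richest NFD nuclei held 16 and 12 of the 101 UMIs, and the richest HFD nuclei 11 each of the 90. The call may therefore rest on few nuclei.

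Of 8 serotonergic genes (Slc6a4, Fev, Slc22a3, Ddc, Maob, Gchfr, Tph2 and Slc18a2), 7 had a lower level in N25 than in N16 in both libraries. The exception was Fev, a transcription factor gene of serotonergic neurons, at 1.79 CPM in HFD and 8.61 CPM in NFD in N25, against 8.33 and 7.5 CPM in N16. Slc6a4 was at 23.3 CPM in HFD and 110 CPM in NFD in N25, against 937 and 815 CPM in N16. Ddc, which makes serotonin and dopamine from their precursors, was at 122 CPM in HFD and 237 CPM in NFD in N25, against 1199 and 1108 CPM in N16. Tph2 was at 82.4 CPM in HFD (10.0% of nuclei) and 341 CPM in NFD (48.9%) in N25. The makeup of N25 thus differed between the libraries in Tph2 and Slc6a4, and the part of this in its Slc17a8 values was not tested.

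Within N25, Slc17a8 and Tph2 were found more often apart than together. In NFD, 51 nuclei had Slc17a8 without Tph2, 23 had both and 42 had Tph2 alone, and in HFD the numbers were 36, 2 and 2. The NFD nuclei with Tph2 alone were the shallowest, with a median of 3537.5 UMIs, against 4785 for those with both and 5596 for those with Slc17a8 alone. Of N25 nuclei thinned to 4000 UMIs, Slc17a8 was in 9 of 31 with Tph2 (29.0%, 14.2 to 48.0) and in 90.5% (82.1 to 95.8) of those without. In NFD alone the shares were 32.1% (15.9 to 52.4) with Tph2 and 89.4% (76.9 to 96.5) without. Gad2 behaved like Tph2 in N25, with Slc17a8 in 36.8% (16.3 to 61.6) of nuclei with Gad2 and 81.3% (72.0 to 88.5) of nuclei without.

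In N16 nearly every nucleus had Tph2, so too few nuclei lacked it to compare the shares with and without Tph2. Slc17a8 was in 26 of 218 N16 nuclei with Tph2 at 4000 UMIs (11.9%, 7.94 to 17) and in 1 of the 14 without. In N16, none of 40 nuclei with Gad2 held Slc17a8 (0 to 8.81%), against 14.1% (9.48 to 19.8) of the other 192. By library, Slc17a8 was in 10 of 126 HFD nuclei with Tph2 (7.94%, 3.87 to 14.1) and in 16 of 92 NFD nuclei (17.4%, 10.3 to 26.7).

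Counting all nuclei at full depth, 26 HFD and 44 NFD nuclei had Slc17a8 with Tph2, and 77 HFD and 121 NFD nuclei had Slc17a8 without Tph2. The same split stood among nuclei with 3 or more Slc17a8 UMIs, with 17 HFD and 20 NFD nuclei holding Tph2 and 40 HFD and 39 NFD nuclei lacking it. Nuclei with Tph2 thinned to 2000 UMIs held Slc17a8 in 4 of 136 HFD cases (2.94%, 0.807 to 7.36) and 20 of 204 NFD cases (9.80%, 6.09 to 14.7), and at full depth in 12.1% of HFD and 15.4% of NFD cases. These intervals overlapped at both depths. The scatter of Slc17a8 against Tph2 shows the split by group.

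**Figure D3:**
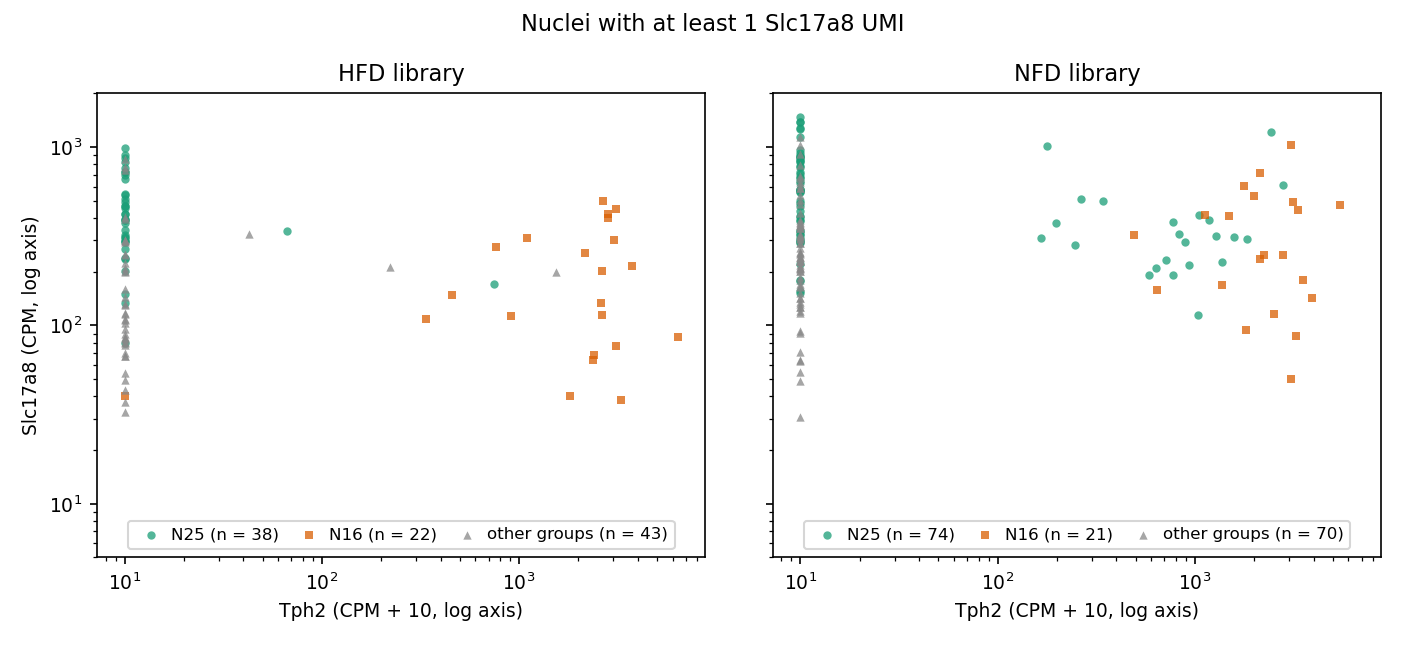
Slc17a8 level (CPM, log axis) against Tph2 level (CPM plus 10, log axis) in each nucleus with at least 1 Slc17a8 UMI, 103 in HFD (left) and 165 in NFD (right), coloured by group. N25 nuclei lie mostly at the left edge, where Tph2 is 0, and N16 nuclei at high Tph2; 2 of 38 N25 nuclei in HFD and 23 of 74 in NFD had Tph2.

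Outside N16 and N25, Slc17a8 was thinly spread over 43 of its 103 HFD nuclei and 70 of its 165 NFD nuclei, with 106 and 100 UMIs in all, and 27 of these HFD nuclei and 52 of these NFD nuclei held a single UMI. N3 had 42 UMIs in 8 HFD nuclei, of which the richest had 12, against 6 UMIs in 4 NFD nuclei. N9, led by Prox1, had 7 UMIs in 2 nuclei in each library, with 6 in a single nucleus both times. N0 had 2 UMIs in HFD and 36 UMIs in 26 nuclei in NFD. Slc17a6 and Slc17a8 shared 19 HFD and 23 NFD nuclei, and in HFD these had a median of 25723 UMIs, against 13856 for nuclei with Slc17a8 alone.

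Slc17a7 was found mainly in the granule neuron-like nuclei, a group named from markers of cerebellar granule neurons. In HFD it had 151 UMIs there (95.6 CPM, 81.0 to 112), in 130 of 814 nuclei (16%). The 9 NFD nuclei of the group held 8400 UMIs in all and no Slc17a7, which allows a level of up to 357 CPM, so NFD gives no value. No other group passed 25 CPM over both libraries.

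The remaining Slc17a7 UMIs of the HFD library lay in groups that also held RNA of granule neuron markers. Cluster 19, led by Slc4a4 and Aldh1a1, had 27 UMIs in HFD (34.0 CPM) against 0 in NFD, and oligodendrocyte-like nuclei had 12 UMIs in HFD (32.7 CPM) against 0 in NFD. Slc17a7 was set against UMIs of Gabra6, Fat2 and Il16, which are 3 of the 6 granule markers listed. Per 100 UMIs of these 3, it had 5.85 UMIs in the granule neuron-like nuclei of HFD and 7.40 in cluster 19. It had 8.51 in oligodendrocyte-like nuclei of HFD and 9.24 in neuronal groups. In the neuronal groups of NFD it had 11.1, on 6 Slc17a7 UMIs and 54 marker UMIs, of which 44 were of Il16. Outside the granule neuron-like group the 3 markers summed to 19.6 CPM in HFD and 1.93 CPM in NFD. All 6 markers of the granule list, of which 1 had no UMI, summed there to 35.5 CPM in HFD and 10.2 CPM in NFD. These were 1884 and 420 UMIs, beside 89 and 8 UMIs of Slc17a7. Per 100 UMIs of the 3 markers Slc17a7 had 8.57 UMIs there in HFD and 10.1 in NFD. With all 6 markers the order of the libraries was the other way round, so this measure depends on the markers summed. Neuronal groups held 40 Slc17a7 UMIs in HFD (0.82 CPM) and 6 in NFD (0.16 CPM). The part of granule neuron RNA in these values was not tested.

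Between the libraries, Slc17a6 stayed within counting range of no difference in most groups. The log2 ratio of HFD to NFD over all nuclei was -0.07 (-0.13 to -0.00). In the 17 neuronal groups with at least 20 UMIs in each library the ratio had a median of 0.04 and ranged from -0.65 in N4 to 0.39 in N0, with 10 groups above 0 and 7 below. N0 was the only group whose interval excluded 0 (0.04 to 0.74), and it held 45 HFD nuclei at a median of 16642 UMIs against 910 NFD nuclei at 3410.5 UMIs. None of the 17 intervals lay wholly beyond 0.32 on the log2 scale. A minimum in each library leaves out groups that are low in 1 of them. With 20 UMIs over both libraries together, a minimum tried after seeing the data, 23 groups entered, with the same median of 0.04. Of these, N25 was called lower in HFD, with 4 UMIs in HFD and 23 UMIs in NFD (-2.20, -4.19 to -0.65). Among groups outside these 23, the intervals of N14, with 5 UMIs in HFD and 13 in NFD (-2.00, -3.84 to -0.42), and of cluster 16, with 15 and 32 UMIs (-1.31, -2.30 to -0.38), also lay beyond the bound. The shares of all genes called in N25, N14 and cluster 16 were not computed. Whether Slc17a6 stood out there from other genes is thus not known.

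**Figure D4:**
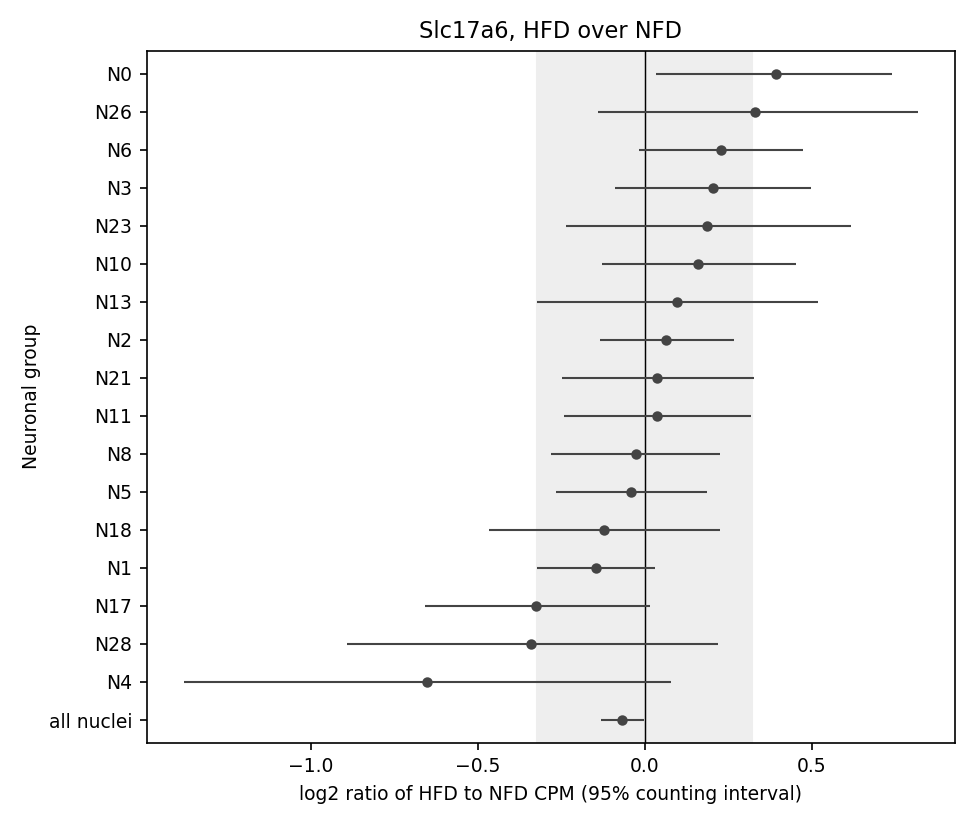
Log2 ratio of HFD to NFD CPM of Slc17a6 in the 17 neuronal groups with at least 20 UMIs in each library and over all nuclei, with 95% counting intervals; the grey band runs from -0.32 to 0.32 and the line marks no difference. The ratios range from -0.65 in N4 to 0.39 in N0, and no interval lies wholly outside the band.

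Of the 3 members, Slc17a7 alone was called over all nuclei, as higher in HFD, where 1.72% of the 16345 genes with at least 100 UMIs were called higher and 3.15% lower. Its log2 ratio was 4.50 (3.49 to 5.72), and without the granule neuron-like group, with 89 UMIs in HFD and 8 in NFD, it was 3.11 (2.07 to 4.36), beside 1.23% of 16303 genes higher and 2.77% lower. Slc17a8 had a log2 ratio of -0.50 (-0.70 to -0.31), a fold of 0.71 whose interval of 0.62 to 0.81 crossed the bound. It was called lower in HFD when mitochondrial genes and Malat1 were left out of the total (-0.52, -0.72 to -0.33) and when nuclei were thinned to 2000 UMIs (-1.40, -1.92 to -0.90), so the call of Slc17a8 depends on these settings. This ratio also carries the number of N25 nuclei captured, which was 40 in HFD and 133 in NFD. The ratio over all nuclei does not by itself separate fewer nuclei of a group from less RNA per nucleus. Within groups, the log2 ratio of Slc17a8 was 0.19 in N25 and -0.95 in N16, which held 131 HFD and 116 NFD nuclei. N25 held 53.3% of the Slc17a8 UMIs in HFD and 55.0% in NFD.

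Of the partner genes, Slc32a1 had 17.4 CPM in HFD and 25.7 CPM in NFD, and its log2 ratio was below 0 in 11 of 12 neuronal groups, with a median of -0.71. The exception was N0 (1.20), and 3 of the 12 intervals lay wholly beyond the bound, which counts both directions. The share of all genes called in each of these groups was not computed. Over the neuronal groups together the ratio of Slc32a1 was -0.55 (-0.68 to -0.42). Beside it, 2.41% of 15319 genes were called lower and 0.627% higher. The 12 groups come from the same libraries, so they are not replicates of a diet. The medians were -0.02 for Gad1 over 16 groups and 0.01 for Gad2 over 25 groups, beside 0.04 for Slc17a6 over 17. The differences between genes were not tested. Tph2 had 106 CPM in HFD and 85.6 CPM in NFD over all nuclei.

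Genes that work beside the transporters were read by the same bound over all nuclei (1.72% of genes higher, 3.15% lower, median log2 ratio of all genes -0.04). Of 11 genes for glutamate synthesis and recycling, none passed, and the median log2 ratio was 0.04. The largest were Glul, glutamine synthetase of glia, with 19.1 CPM in HFD and 25.6 CPM in NFD (-0.43), and Slc25a22, a mitochondrial glutamate carrier, with 16.8 CPM in HFD and 12.6 CPM in NFD (0.41). Without the granule neuron-like group Glul was called lower in HFD (-0.46, -0.59 to -0.33). Got2, mitochondrial aspartate aminotransferase, was at -0.18 and Slc38a1, a glutamine transporter, at 0.18. Of 7 plasma membrane glutamate transporters none passed, with a median of -0.09. Slc1a2, the main astrocytic glutamate transporter, was at 83.3 CPM in HFD and 101 CPM in NFD (-0.27). In the neuronal groups alone, Slc1a3, the other main astrocytic transporter, was called lower in HFD, with 1.64 CPM in HFD and 4.03 CPM in NFD (-1.30, -1.71 to -0.90). Slc1a3 was a leading gene of N0, which held 45 HFD and 910 NFD nuclei. No value without N0 was computed, and the part of N0 in this ratio was not tested.

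Of 9 genes for vesicle acidification, which supplies the proton gradient, Atp6v0c, a membrane subunit of the vesicular ATPase, was lower in HFD by this bound, with 104 CPM in HFD and 146 CPM in NFD (-0.49), and the median was -0.02. Of 5 vesicular transporters of other transmitters, 4 were measured with at least 100 UMIs, and Slc32a1 was lower in HFD (-0.56), beside Slc18a1 at -0.39, Slc17a9 at 0.24 and Slc18a2 at 0.15. Of the 6 other SLC17 genes listed, 2 reached 100 UMIs and neither passed (Slc17a5, the lysosomal sialic acid carrier, at -0.13). Of 17 genes for synthesis and uptake of co-transmitters, 15 were measured, of which 3 passed as higher and 2 as lower in HFD, with a median of 0.02. The largest ratios were those of the noradrenaline transporter gene Slc6a2 (-0.96, on 63 UMIs in HFD and 92 in NFD), the acetylcholine enzyme gene Chat (0.84, on 217 and 91 UMIs), the histamine enzyme gene Hdc (0.76, on 140 and 62 UMIs) and the GABA transporter gene Slc6a11 (-0.47). The Hdc difference lay outside the neuronal groups, which held 14 UMIs in each library (-0.36, -1.54 to 0.81), while in these groups Chat was at 0.93 (0.57 to 1.31), Slc6a2 at -0.93 (-1.42 to -0.45) and Slc6a11 at -0.16 (-0.28 to -0.04).

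The genes whose levels followed each transporter most closely over the 41 groups differed between the 3 members. For Slc17a6 they were Nrn1, encoding neuritin (Pearson r = 0.92), Gm49144 (0.84), Adcyap1, encoding the peptide PACAP (0.83), Gm30489 (0.81) and the calcium channel subunit gene Cacna2d1 (0.81). For Slc17a7 they were Crtam (0.99), AC165153.1 (0.97), the GABA-A receptor subunit gene Gabrd (0.96), Gm42912 (0.95) and Fat2 (0.95), all highest in granule neuron-like nuclei. For Slc17a8 they were Cwh43 (0.81), Lmx1b (0.74), Cntnap3 (0.70), Tph2 (0.70) and Gm43154 (0.69), each highest in N25 or N16. These correlations describe 41 groups that share 2 libraries, and those of Slc17a7 and Slc17a8 rest on 1 or 2 groups.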

How the data were processed

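Nuclei of the vlPAG were captured with the Chromium 3′ v3 kit, 1 library per diet, with a capture target of 8000. The deposited files hold UMI counts per gene and nucleus, which the authors made with bcl2fastq 5.01 and Cell Ranger on GRCm38, with Seurat 3.1.1 also named in the submitters' processing notes. How the counting step treated intronic reads is not given by the sources used here. Groups came from the sample labels.

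The filter of the study was applied, so nuclei needed over 500 UMIs with less than 20% of them mitochondrial. Counts were normalized to 10000 per nucleus and clustered in Seurat 5.3.0 (R 4.3.3) with both libraries together, 2000 variable genes less the transmitter genes of a list of 19, 20 principal components and a resolution of 0.5. Neuronal nuclei were clustered again at 1.0, a resolution chosen after the groups at 0.5 were seen, since most Slc17a8 UMIs lay in 1 mixed group there. Clusters were named from marker lists, and those without a clear class kept a number. Scrublet (scanpy 1.11.5) called 0 HFD and 1 NFD doublets and was not usable, so no doublet was removed, except in an alternative that drops the top-scoring 6% of each library.

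CPM are summed UMIs of a library and group over their total. Their intervals are exact Poisson ones, those of ratios are exact and conditional on the sum (binomial), and those of shares are Clopper-Pearson ones, computed in Python 3.11.15, numpy 2.4.6, pandas 2.3.3 and scipy 1.17.1, with plots in matplotlib 3.10.9. A gene was called when the interval of its log2 ratio lay wholly beyond 0.32 in either direction, among genes with at least 100 UMIs, and group ratios needed 20 UMIs in each library, with 20 over both libraries together also given. A count of 0 allows up to 3 counts. Genes named beside the members and partners were up to 4 per list with the largest ratios, the genes most like each member in level (with at least 200 UMIs), and the leading genes and markers of the groups described. With 1 library per diet no p-value was computed. The ratio step was tested on simulated data. Gene models were those of GENCODE M21. The members, lists and alternatives were chosen with earlier results of these data known.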

Additional observations from a re-analysis of the deposited data

How the results depend on the processing

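Of 132 alternative values of 28 results, 96 stayed within the counting interval of the main value (counts within 1.5 times), 36 moved and 0 reversed. A reversal, meaning a change of sign, was scored only for ratios called in the main setting, which were those of Slc17a7. The other results could not be scored as reversed, so the 0 says nothing of them or of the order of the diets in shares. With 20 UMIs over both libraries together, an alternative chosen after seeing the data, 1 neuronal group (N25) was called for Slc17a6, against 0 with 20 UMIs in each library. With each nucleus weighted equally, the log2 ratio over all nuclei was -0.21 for Slc17a6 and -0.97 for Slc17a8, and with nuclei thinned to 2000 UMIs it was -1.40 for Slc17a8, which passed the bound there (-1.92 to -0.90) and with mitochondrial genes and Malat1 left out of the total (-0.52, -0.72 to -0.33). In neuronal clusters only, that of Slc17a7 was 2.37. Shares of GABA-gene nuclei with a vesicular glutamate transporter were 21.5% in HFD and 18.0% in NFD at full depth, 2.78% and 3.18% at 1000 UMIs, 10.1% and 11.7% at 4000 UMIs and 9.96% and 5.45% with 2 UMIs or more of each gene. In NFD this share was 6.75% with another seed of the thinning and, in an alternative chosen after seeing the data, 6.26% without N0, N15 and cluster 16. Shares of Slc32a1 nuclei with Slc17a6 were 13% in HFD and 8.47% in NFD at full depth, 1.03% and 1.06% at 1000 UMIs, 5.05% and 5.40% at 4000 UMIs, 8.85% and 5.05% with 2 UMIs or more and 2.06% and 3.64% with another seed. The order of the diets was thus turned round at 1000 and 4000 UMIs and with another seed. Shares of Tph2 nuclei with Slc17a8 were 12.1% in HFD and 15.4% in NFD at full depth and 13% and 15.1% with 2 UMIs or more, and NFD had 4.23% at 1000 UMIs and 16.2% at 4000 UMIs. At the resolution of 0.5 for all nuclei, the serotonergic neuron-like cluster had 89.6 CPM of Slc17a8 in HFD and 132 CPM in NFD. This was 38.5 and 83.1 CPM at a resolution of 0.3, 103 and 169 CPM with 30 principal components and 102 and 152 CPM with the transmitter genes kept in. Cluster 4 of the clustering at 0.5, which held most N5 nuclei, had 113 CPM of Slc17a6 in HFD and 114 CPM in NFD, against 126 CPM in HFD at 0.3 and 143 and 137 CPM with 30 principal components. The cause of these shifts was not tested. N10 at a neuronal resolution of 0.3, and N25 at 0.5 and 0.3, had no matching group and so no value. No paired analysis was possible because each diet has 1 library. Slc17a7 in NFD, with 8 UMIs, and co-detection of 2 sparse genes are limited by depth.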

Other observations

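Slc17a6 also met other transmitters in groups whose results the comparisons do not use. N28, led by the choline transporter gene Slc5a7 and Chat, had Slc17a6 at 75.1 CPM in HFD and 95 CPM in NFD, and after thinning to 4000 UMIs it was in 24 of 81 nuclei with Chat or Slc5a7 (29.6%, 20.0 to 40.8) and in 39.5% (25.0 to 55.6) of those without. By library the share in nuclei with Chat or Slc5a7 was 34.8% in HFD (16 of 46) and 22.9% in NFD (8 of 35), with overlapping intervals. The vesicular acetylcholine transporter gene Slc18a3 had no UMI in either library.

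N13, dopaminergic-like and led by Vip and Ttc6, had Slc17a6 at 82.7 CPM in HFD and 77.3 CPM in NFD. In its nuclei with Th, the gene of the rate-limiting enzyme of catecholamine synthesis, Slc17a6 was found in 8 of 56 (14.3%, 6.38 to 26.2), against 24.0% (18.0 to 31.0) of nuclei without Th. In N21, the group highest in Slc17a6, 21 of 33 nuclei with Th had Slc17a6 (63.6%, 45.1 to 79.6), against 43.8% (35.5 to 52.3) without, and the intervals overlapped in both groups.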
